A study of Mus musculus with 3 samples.

Results

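The shear stress and endothelin genes are 10 genes that connect blood and fluid flow with the tone of vessels and contractile tissue: Klf2, Klf4, Nos3, Thbd, Piezo1, Edn1, Edn3, Ece1, Ednra and Ednrb. They were taken by symbol from a list drawn up with earlier results of these data known, and all 10 were found among the 31053 genes of the deposited count matrices. UMIs (unique molecular identifiers, which count captured RNA molecules) of each gene were summed over the cells of each cell label and each library.

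The data are single-cell RNA-seq of dissected limbus and iridocorneal angle from albino mice at 6 weeks of age, bred over 2 generations onto ICR mice. Both controls carried Angpt1 flox/flox without Cre, and the knockout, Angpt1ΔNC, carried Angpt1 flox/flox with Wnt1Cre, which removes the growth factor Angpt1 from cells of the neural crest lineage. Each library pooled tissue from 2 to 3 mice, and there were 2 control libraries and 1 Angpt1ΔNC library. Tissue was digested with collagenase A and then trypsin. After the authors' filters the libraries held 9076 and 10160 control cells and 6772 Angpt1ΔNC cells, with a median of 6329.5, 6393.5 and 7444 UMIs per cell. The targeted gene, Angpt1, was at 0.378 and 0.393 UMIs per 10,000 in the control libraries and at 0.00391 in the Angpt1ΔNC library. Between 13 and 25 cell barcodes were shared by any pair of libraries.

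The libraries differed in sex, although male and female animals were pooled according to the submitters. A UMI of Xist, the RNA of the inactive X chromosome of female cells, was found in 0.0331% and 0.0197% of control cells and in 58.7% of Angpt1ΔNC cells. Genotype and sex therefore cannot be told apart in sums over all cells. A second fit used only cells with a Y-linked transcript and no Xist (69.7% and 72.1% of control cells, 29.4% of Angpt1ΔNC cells). Apart from counts of genes called, it was read only for the members in the 7 classes. Class calls of members that were lost in it are stated below. Results of single labels, interaction terms and other pathway genes were not checked in this way, so sex is not set apart from genotype there.

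Laminar flow over endothelium induces the transcription factors KLF2 and KLF4, which in turn raise endothelial nitric oxide synthase (Nos3) and thrombomodulin (Thbd), while PIEZO1 is a channel that opens under membrane tension. Endothelins are short peptides that are cut from larger precursors by endothelin converting enzyme (Ece1) and bind a pair of receptors: Ednra, found mainly on contractile cells, and Ednrb, found on endothelium, melanocytes and other neural crest derivatives. In the outflow pathway, nitric oxide is known to relax, and endothelin-1 to contract, the trabecular meshwork (TM) and vessel wall.

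In the mouse genome (GRCm38) the flow-induced factor Klf2 (ENSMUSG00000055148) lies on chr8:72319033-72321656 and the ligand Edn1 (ENSMUSG00000021367) on chr13:42301476-42307990. The ligand Edn3 (ENSMUSG00000027524) lies on chr2:174760619-174784042, and all 3 genes are on the plus strand. Their promoters are shown because the main differences between cells and genotypes below concern these members. The 250 bases before the start annotated by RefSeq (GRCm38.p6) were taken, and 8 of the 10 members had a RefSeq entry. For Klf2 the RefSeq start lies after the gene start given above, so its window runs into the gene as placed there. The windows are chr8:72318812-72319061, chr13:42301226-42301475 and chr2:174760369-174760618, all plus strand. Capitals mark matches to CACCC, the core bound by Kruppel-like factors (GGGTG on the other strand), or to the MEF2 motif, which is CTA and TAG with any 4 bases between them.
Klf2: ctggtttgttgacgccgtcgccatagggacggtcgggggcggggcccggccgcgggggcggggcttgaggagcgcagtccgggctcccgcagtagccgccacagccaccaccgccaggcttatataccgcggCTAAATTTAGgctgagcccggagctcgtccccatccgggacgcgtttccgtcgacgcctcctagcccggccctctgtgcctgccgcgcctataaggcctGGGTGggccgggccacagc
Edn1: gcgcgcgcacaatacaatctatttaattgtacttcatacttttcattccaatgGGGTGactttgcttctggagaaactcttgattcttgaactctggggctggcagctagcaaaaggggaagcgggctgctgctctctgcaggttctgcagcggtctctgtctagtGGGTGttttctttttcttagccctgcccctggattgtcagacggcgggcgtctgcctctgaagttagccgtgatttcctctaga
Edn3: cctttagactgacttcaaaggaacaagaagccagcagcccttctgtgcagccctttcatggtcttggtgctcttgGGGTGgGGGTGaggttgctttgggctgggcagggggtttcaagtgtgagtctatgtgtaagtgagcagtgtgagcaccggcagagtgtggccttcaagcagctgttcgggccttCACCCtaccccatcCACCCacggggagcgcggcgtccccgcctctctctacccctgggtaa
Klf2 had a MEF2 match, CTAAATTTAG, with its first base 118 bases before the start, and 3.2% of all 32851 promoters held such a match on either strand. A CACCC match, present in 52.0% of all promoters, occurred once in Klf2, 2 times in Edn1 and 4 times in Edn3. The Klf2 match began 19 bases before the RefSeq start, within the gene as placed above. The AP-1 motif TGANTCA (6.75% of promoters) and the GATA motif TGATAA (7.94%) had no match in these 3 windows. A match describes the letters only, and no binding was measured.

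Levels by label are given as UMIs per 10,000 UMIs of the same cells, in the order control 1, control 2, Angpt1ΔNC, over the 34 labels that could be ranked. They describe where each gene was found, with no test. The labels are those the authors deposited. SC is Schlemm's canal endothelium, LEC is lymphatic endothelium, and EC2 to EC4 are blood endothelium. TM1 to TM11 are clusters in which the authors sought TM cells, and numbers name the rest. The paper reads TM1 as keratinocytes, TM2 as corneal endothelium, TM4 and TM5 as putative TM, and TM6 to TM9 as uveal cells. It proposes that TM10 is corneal stroma. Below, TM stroma means all of TM1 to TM11 together, not the TM alone. A cell type given beside a number (pericyte label 20) is the marker list that led that label, not the authors' name. Levels of different genes are not compared, because transcript length was not taken into account.

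Klf2, the flow-induced factor, was highest in a stromal label, not in endothelium. In TM6 it was at 16.9, 16.0 and 11.5, and in the blood endothelial label EC4 at 15.9, 9.37 and 3.62. The ranges of TM6 and EC4 overlapped, whereas those of all other labels lay below TM6. Smooth muscle label 19 held 9.42, 9.26 and 5.19, T-cell label 22 held 11.4, 8.68 and 3.28, and Schlemm's canal 6.82, 9.06 and 3.00. In each of these labels the Angpt1ΔNC library was the lowest of the 3. TM6 was also the label with very high immediate-early gene levels: the 15 genes of a dissociation-response list summed to 412, 354 and 226 there, against 126, 109 and 110 in EC4, and their part in the Klf2 level was not tested.

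Klf4, the related factor that is also known as a regulator of surface epithelium, followed another order. TM6 (18.5, 16.6 and 12.1), TM10 (14.1, 12.8 and 14.4) and label 13 (12.2, 10.7 and 14.3) had overlapping ranges at the top, and TM10 was the highest label in the Angpt1ΔNC library. Surface epithelial label 3 held 10.2, 8.19 and 10.8. The label with the fewest cells, LEC, stood at 5.44, 12.5 and 28.9, but these values came from only 3, 1 and 12 cells.

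Nos3, which makes nitric oxide in endothelium, was the most endothelial member. It was at 2.03, 1.34 and 2.39 in EC2, at 0.884, 1.13 and 1.48 in EC3, at 0.855, 1.12 and 0.866 in EC4, and at 0.798, 1.01 and 1.02 in Schlemm's canal. EC2 and EC3 overlapped, and no ranked label outside endothelium exceeded 0.19 in any library. Endothelial cells held 56.1%, 67.3% and 69.4% of all Nos3 UMIs, although they held only 3.32%, 3.82% and 2.76% of all UMIs. Of endothelial cells, 44.7%, 46.8% and 43.5% had a Nos3 UMI, against 0.483%, 0.759% and 0.290% of mural cells, which should lack it. The median depth was 6497, 7263 and 7093 UMIs in endothelial and 4783, 5027 and 4356 in mural cells.

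Thbd, the thrombin receptor that activates protein C, was not led by endothelium. Pericyte label 20 held 3.53, 4.40 and 6.67, label 18 (keratocyte markers) 4.84, 6.02 and 2.03, and TM7 3.37, 4.96 and 1.87. These labels overlapped with TM8 and TM9, and label 18 was the highest in both controls. Schlemm's canal held 2.50, 3.15 and 2.04, below the range of label 20.

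Piezo1, the mechanosensitive channel, was highest in endothelium. EC2 held 1.64, 1.39 and 1.60 and EC3 0.966, 1.27 and 1.46, which overlapped. Schlemm's canal (0.962, 1.04 and 1.23) and EC4 (0.855, 1.26 and 0.976) followed, and the melanocyte label 8 stood at 0.746, 0.720 and 0.770. Label 8 had the least spread between libraries of these, while EC3 and EC4 varied more.

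Edn1, the main vasoconstrictor endothelin, was highest in EC2 in every library. EC2 held 9.75, 4.59 and 15.2, EC3 3.19, 2.44 and 3.18, EC4 1.20, 1.41 and 3.55, and Schlemm's canal 0.163, 0.147 and 0.886. No label's range overlapped that of EC2. Macrophage label 24 came next outside endothelium (2.75, 2.56 and 2.87), and 20.2%, 25.6% and 28.9% of its cells had an Edn1 UMI, against 0.129%, 0.128% and 0% of melanocytes. Endothelium held 28.8%, 26.7% and 41.1% of all Edn1 UMIs.

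Edn3, the ligand with a known role in neural crest and melanocyte development, was highest in stroma and not in endothelium. Label 18 held 5.89, 6.47 and 6.09, with almost no spread. TM7 (8.50, 6.96 and 2.67), TM6 (8.04, 6.61 and 3.65), TM9 (6.91, 5.89 and 3.79) and TM8 (6.04, 6.63 and 3.49) overlapped label 18, and in each of the 4 the Angpt1ΔNC library was below both controls. TM7 was the highest label in both controls. Pericyte label 20 also held Edn3, at 4.47, 4.18 and 1.78. An Edn3 UMI was found in 78.4%, 73.3% and 82.2% of label 18 cells, against 0.644%, 0.809% and 0.544% of surface epithelial cells.

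Ece1, the converting enzyme, was highest in blood endothelium and was also present across the TM labels. EC2 held 4.25, 4.26 and 5.81, EC3 3.30, 4.68 and 3.42, and Schlemm's canal 2.32, 2.72 and 2.73. EC2 and EC3 overlapped, with EC3 the higher in control 2. TM7 held 2.97, 3.15 and 1.73.

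The receptors peaked in different labels. Ednra was highest in pericyte label 20 (3.50, 3.90 and 4.05), followed by TM8 (2.18, 2.31 and 1.60) and label 21 (1.65, 1.56 and 1.97), and it was at 0 in EC2. No other label's range overlapped that of label 20. Ednrb was highest in melanocyte label 8 (27.0, 25.4 and 26.6), ahead of the other melanocyte label 9 (24.6, 21.2 and 24.1), with EC4 (7.98, 4.46 and 5.24) and EC3 (6.63, 5.74 and 3.24) next. Melanocytes held 93.5%, 92.4% and 91.9% of all Ednrb UMIs. Every cell of label 8 had an Ednrb UMI, and 70.1%, 75.2% and 72.1% of label 20 cells had an Ednra UMI, against 0.678%, 0.612% and 0.478% of endothelial cells.

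**Figure D1:**
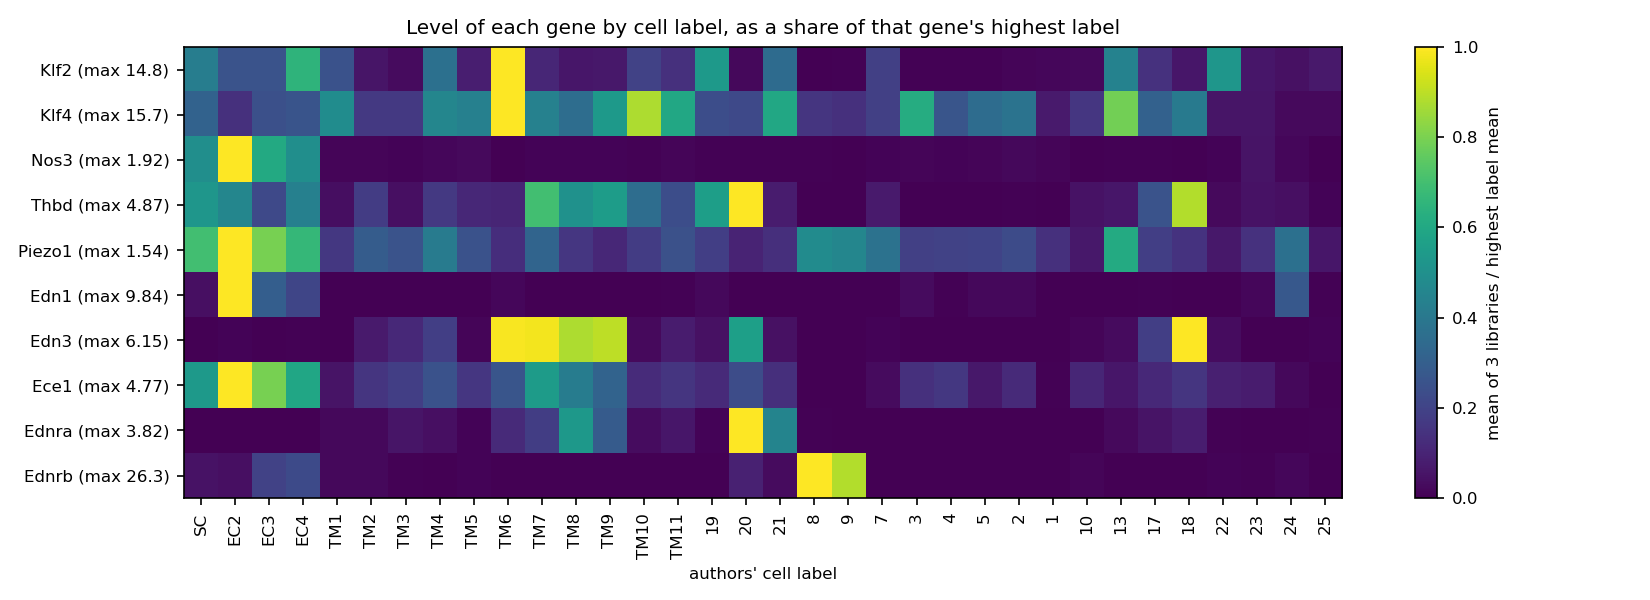
Heat map of the 10 members (rows) over 34 cell labels (columns), coloured by the mean level of the 3 libraries as a share of that gene's highest label, whose level in UMIs per 10,000 stands beside the gene. Edn1 and Nos3 peak in EC2, Edn3 in label 18 and TM6 to TM9, Ednra in label 20 and Ednrb in labels 8 and 9.

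Other genes followed the members across the 35 labels (Pearson's r of log2 level, 14748 genes, all points sharing the same 3 libraries, given as a description). Nos3 was most like Grrp1 (r = 0.985), Mmrn2 (0.980) and Robo4 (0.978), the last a receptor of endothelium. Edn1 was most like Rhbdf2 (0.883), Mctp1 (0.859) and Pmaip1 (0.848), and Edn3 like Aldh1a2, an enzyme of retinoic acid synthesis (0.931), Tro (0.912) and Nr2f1 (0.887). Ednra was most like Kcne4 (0.925) and Foxl1 (0.911), and Ednrb like Car4 (0.824), Spata6 (0.812) and Rasgrp3 (0.804).

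The remaining members had looser matches. Klf2 was most like Map3k3, a kinase upstream of it in the flow response (0.776), Txnip (0.768) and Tsc22d3 (0.765). Klf4 was most like Ckap4 (0.806), Larp1b (0.804) and Hdlbp (0.778), Thbd like Tcf4 (0.854), Fbxl7 (0.840) and Peak1 (0.819), Piezo1 like Ppfibp1 (0.793), Fzd6 (0.793) and Ptpn14 (0.761), and Ece1 like Ddit4 (0.860), Zfp36l1 (0.850) and Dgkh (0.840). Among the members themselves, Nos3 and Edn1 had r = 0.806 and Edn3 and Ednra had r = 0.827.

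The effect of neural crest Angpt1 loss was then tested by class. UMIs were summed per library and class and fitted with edgeR's quasi-likelihood test, with Benjamini-Hochberg adjustment over all genes tested in the class, and a gene was called at an adjusted p under 0.05. Log2 changes are Angpt1ΔNC minus control with their SE. With 1 Angpt1ΔNC library each fit had 1 residual degree of freedom, and that library is assumed to vary like the controls. All comparisons share the same 3 libraries.

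In endothelium, Edn1 rose and Klf2 fell in Angpt1ΔNC mice. Edn1 stood at 2.52, 1.96 and 4.99, with the Angpt1ΔNC library above both controls, a change of 1.33 ± 0.16 on the log2 scale, or 2.51-fold (adjusted p = 7.43e-08). Klf2 stood at 8.14, 5.96 and 3.94, with the Angpt1ΔNC library below both controls, a change of -0.67 ± 0.17, or 1.59-fold lower (adjusted p = 0.00652). Of the 9 members tested 3 were called, against 12.9% of all genes tested. The third was Klf4 (4.45, 4.12 and 5.31, log2 change 0.48 ± 0.15, adjusted p = 0.0321), and this call rested on the LEC label, where the 3 libraries held 6, 17 and 412 Klf4 UMIs. Without LEC the log2 change of Klf4 was -0.16 (adjusted p = 0.559), while Edn1 (1.46, adjusted p = 5.28e-05) and Klf2 (-0.92, adjusted p = 0.00639) were still called. The Klf2 call, unlike that of Edn1, was lost in male-typed cells (-0.18, adjusted p = 0.578) and by DESeq2 (adjusted p = 0.0864). The makeup of this class differed between libraries. Of its 295, 327 and 209 cells, 32, 38 and 37 were in EC2, where Edn1 was highest. Schlemm's canal held 46, 63 and 15 cells, and LEC 3, 1 and 12. Apart from the fit without LEC, the part of this makeup in the class changes of Edn1 and Klf2 was not tested.

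Schlemm's canal (SC) and blood endothelium (EC2 to EC4) are parts of the endothelial class, so their results do not stand apart from it. The same directions were measured in both. In Schlemm's canal Klf2 stood at 6.82, 9.06 and 3.00, a log2 change of -1.31 ± 0.28 (adjusted p = 0.00785), and Edn1 at 0.163, 0.147 and 0.886, a log2 change of 2.60 ± 0.60 (adjusted p = 0.0124). The Angpt1ΔNC library lay outside both controls for each gene. These values come from 46, 63 and 15 cells, and Edn1 from 9, 10 and 13 UMIs. The Edn1 call there has no value in the male-typed fit and no adjusted p from DESeq2, so neither could check it. There 2 of 8 members tested were called, against 3.03% of all genes.

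In blood endothelium Klf2 stood at 8.51, 5.08 and 3.27 (log2 change -0.87 ± 0.25, adjusted p = 0.0497) and Edn1 at 3.18, 2.49 and 5.82 (1.22 ± 0.17, adjusted p = 0.000824). For both genes the Angpt1ΔNC library lay outside the controls, and 2 of 9 members were called, against 9.56% of all genes. Without control 1 the Klf2 change was -0.49, and without control 2 it was -1.20.

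Each blood endothelial label was also fitted alone, where edgeR called 5.36% of genes in EC2, 7.3% in EC3 and 2.95% in EC4. Klf2 changed by -1.12 in EC2 (adjusted p = 0.00725) and by -1.63 in EC4 (adjusted p = 0.0178). Edn1 changed by 1.19 (adjusted p = 0.000244) and 1.61 (adjusted p = 0.00431) in the same labels. In EC3 neither gene was called. Ednrb, which on endothelium is known to trigger nitric oxide release, fell in EC3 (log2 change -0.79, adjusted p = 0.00676) and in EC2 (-1.19, adjusted p = 0.0432).

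The Klf2 difference depended on the tool and on the cells. By DESeq2 its adjusted p was 0.645 in blood endothelium and 0.0235 in Schlemm's canal. Among blood endothelial cells typed as male it was -0.37 (adjusted p = 0.369). Within the Angpt1ΔNC library, Klf2 in endothelium was at 3.17 in 122 cells with Xist and at 5.31 in 66 cells with a Y-linked transcript, and the Y-typed control cells stood at 7.77 and 6.00. Edn1 was called in male-typed cells too (endothelium 1.02, adjusted p = 1.1e-07, blood endothelium 0.95, adjusted p = 0.0015). In male-typed Schlemm's canal, which held 2 Angpt1ΔNC cells, Klf2 was at -0.40 (adjusted p = 0.645).

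**Figure D2:**
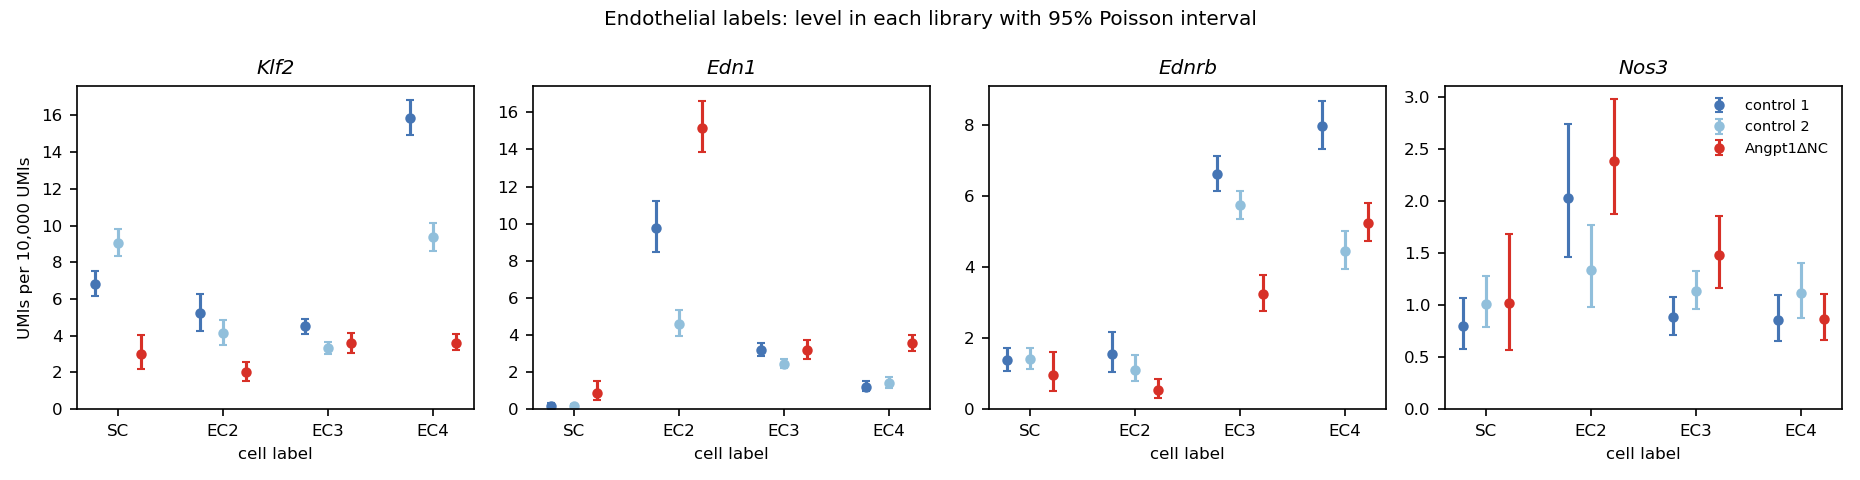
Levels of Klf2, Edn1, Ednrb and Nos3 (UMIs per 10,000, points, with 95% Poisson intervals for counting error) in 4 endothelial labels, 1 colour per library. In EC2, EC4 and SC the Angpt1ΔNC library is above both controls for Edn1 and below both for Klf2.

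The other endothelial members did not pass the threshold. Nos3 stood at 0.947, 1.12 and 1.28, a log2 change of 0.47 (adjusted p = 0.0752), and Ednrb changed by -0.32 (adjusted p = 0.25). Nos3 and Piezo1 were called in 0 of 6 and 0 of 7 classes by edgeR, with 2 and 0 of these at an unadjusted p under 0.05, and by DESeq2 in 0 of 4 and 0 of 6.

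Pathway genes around these members moved in both directions. Of 20 genes that sense flow upstream of KLF2, 5 were higher and 1 lower in endothelium, where 12.9% of all genes were called, with a median log2 change of 0.24 against -0.02 over all genes. They included Cdh5, the endothelial cadherin (0.53 ± 0.15), Plxnd1 (0.60 ± 0.16) and the calcium channel Pkd2 (0.74 ± 0.21), while the kinase Map2k5 fell (-1.28 ± 0.40). Of 10 genes known to be induced by flow, 3 rose, including the gap junction gene Gja4 (1.08 ± 0.20), and the heme oxygenase Hmox1 fell (-0.85 ± 0.16), beside the same 12.9% of all genes.

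Among 9 genes known to be lowered by laminar flow, 4 rose and 4 fell in endothelium, against 12.9% of all genes called. The median log2 change of the list was -0.49 in the whole endothelial class, 0.56 in Schlemm's canal and 0.22 in blood endothelium. The list was not read in the fit without LEC, and the part of the class makeup in these medians was not tested. The calls and sums did not follow these medians. In Schlemm's canal 0 of 8 genes tested rose and 2 fell, against 3.03% of all genes called. There the list summed to 45.9, 37.5 and 17.1. In blood endothelium 2 of 9 rose and 3 fell, against 9.56%. The adhesion genes Vcam1 (0.55 ± 0.17) and Icam1 (0.45 ± 0.15) rose, and the chemokine Ccl2 (-2.76 ± 0.23) fell. In Schlemm's canal Ccl2 changed by -3.13, the flow-sensing gene Heg1 by 2.49 and the sphingosine-1-phosphate receptor S1pr1 by -1.18. The 15-gene dissociation-response list, which holds immediate-early genes, summed to 114, 96.0 and 105 in endothelium and to 64.6, 69.7 and 43.4 in Schlemm's canal. Its part in the Klf2 difference was not tested.

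In the TM stromal labels the ligand Edn3, the enzyme Ece1 and the receptor Ednra fell. Edn3 stood at 3.6, 3.11 and 1.14, with the Angpt1ΔNC library below both controls, a log2 change of -1.55 ± 0.16, or 2.93-fold lower (adjusted p = 0.000883). Ece1 stood at 1.47, 1.65 and 0.845 (-0.89 ± 0.17, adjusted p = 0.0156) and Ednra at 0.567, 0.637 and 0.294 (-1.03 ± 0.16, adjusted p = 0.00766). The controls lay close together for all 3 genes. Of 10 members 3 were called, against 8.97% of all genes. All 3 were called in male-typed cells too, with Edn3 at -1.82, Ece1 at -0.98 and Ednra at -1.71, and Klf2 (0.60, adjusted p = 0.0202) and Thbd (-0.84, adjusted p = 0.0052) were called there in addition.

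The share of cells with an Edn3 UMI was lower in the Angpt1ΔNC library too. Of TM stromal cells 61.2%, 57.7% and 34.5% had an Edn3 UMI, and with every cell thinned to 2000 UMIs the shares were 43.8%, 38.9% and 17.6%. The makeup of the class differed between libraries: TM7 held 667, 739 and 174 cells and TM8 591, 612 and 155. With the labels weighted equally the log2 changes were -1.0 for Edn3, -0.57 for Ece1 and -0.51 for Ednra.

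Single TM labels were fitted alone as well, and edgeR called 6.52% of genes in TM4, 5.07% in TM7, 3.58% in TM8 and 15.1% in TM9. In TM4, which carries TM markers, Edn3 went from 1.71 and 1.55 to 0.158, a log2 change of -3.33 (adjusted p = 4.19e-07), Thbd from 0.814 and 1.26 to 0.333 (-1.62) and Ednra from 0.183 and 0.199 to 0.079 (-1.24). In TM7 Edn3 changed by -1.52 (adjusted p = 0.00356), Ece1 by -0.81, Thbd by -1.15 and Klf4 by -0.96. In TM9 Edn3 (-0.64), Ece1 (-0.91), Ednra (-0.92), Klf2 (-0.88) and Klf4 (-0.55) fell and Thbd rose (1.18). The dissociation-response genes summed to 114, 108 and 77.4 in TM9, with 7 of 15 lower and 1 higher, and to 99.3, 94.5 and 55.3 in TM7, with 6 of 15 lower, and their part in these results was not tested. Thbd also rose in TM8 (1.82), so its direction differed between the TM labels, and over the class it was not called. The falls of Ednra, Ece1 and Edn3 were not seen in every label either. Ednra stood at 0.562, 0.820 and 0.710 in TM7, Ece1 at 0.650, 0.777 and 0.819 in TM5, and Edn3 at 0.585, 0.837 and 0.732 in TM3.

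Some genes of the nitric oxide and endothelin lists were lower as well. In TM stroma Rgs5, a regulator of G protein signalling in pericytes, went from 3.73 and 2.86 to 0.392 (-3.06 ± 0.20), Rgs4 changed by -4.22 ± 0.31, and the nitric oxide receptor subunit genes Gucy1a1 (-2.42 ± 0.22) and Gucy1b1 (-1.26 ± 0.22) and the cGMP phosphodiesterase Pde5a (-1.29 ± 0.16) fell. These were 3 of 9 nitric oxide and cGMP genes tested and 2 of 8 other endothelin system genes, against 8.97% of all genes called, and the rest of both lists did not pass. Rgs5 is also a pericyte marker, and the paper reports strong Rgs5 expression in TM7. That label held 667, 739 and 174 cells. No change with the labels weighted equally was computed for the genes of these lists. The part of the class makeup in their falls was not tested. The pericyte markers summed to 2.61, 2.68 and 2.05 in TM7 and to 1.83, 1.82 and 2.23 in TM4, and Kcnj8, a defining pericyte gene, was at 0.335, 0.490 and 0.0859 in TM7 and at 0.0651, 0.0506 and 0.00687 in TM4. Their part in the Ednra difference was not tested.

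**Figure D3:**
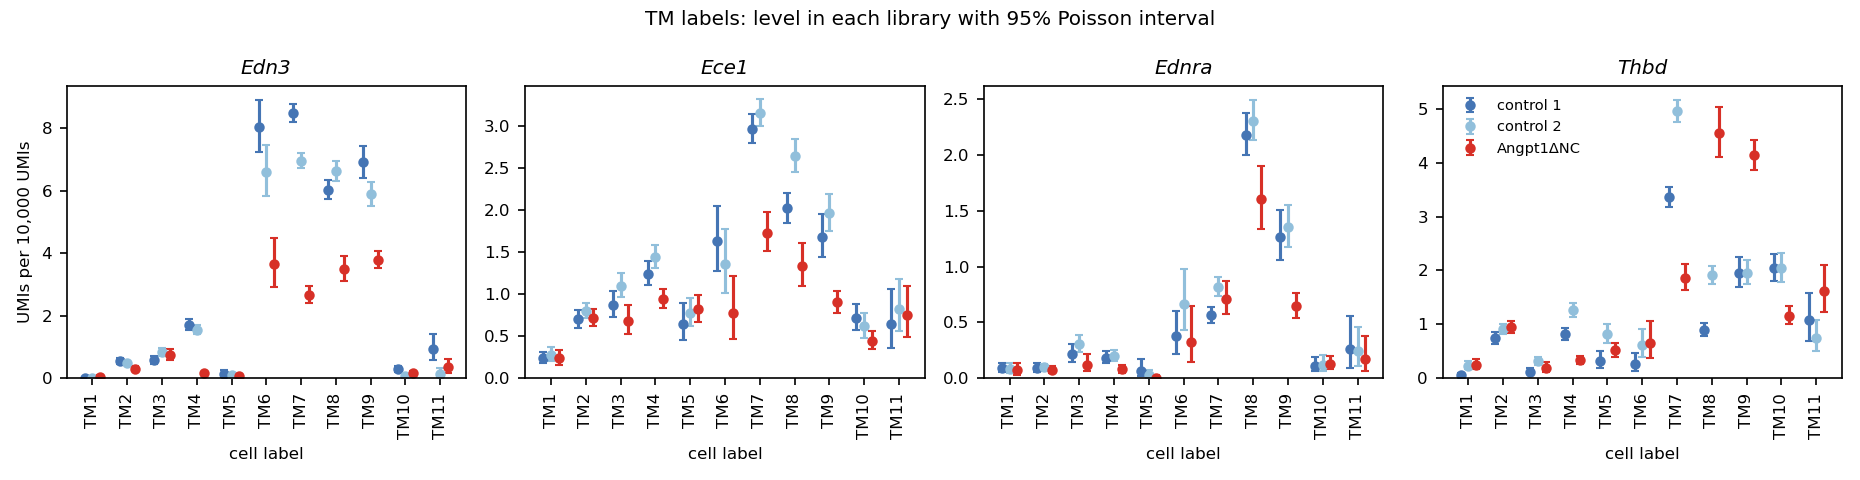
Levels of Edn3, Ece1, Ednra and Thbd (UMIs per 10,000, points, with 95% Poisson intervals for counting error) in TM1 to TM11, 1 colour per library. Edn3 is lower in Angpt1ΔNC than in both controls in TM4 and in TM6 to TM9.

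In the mural class, formed from smooth muscle and pericyte labels 19, 20 and 21, Klf2 fell and Ednrb rose. Klf2 stood at 5.59, 5.78 and 1.37, a log2 change of -1.86 ± 0.16, or 3.63-fold lower (adjusted p = 4.52e-07). Ednrb stood at 0.716, 0.463 and 2.82 (2.46 ± 0.19, 5.50-fold higher, adjusted p = 1.89e-07). The 2 controls were close for Klf2 and further apart for Ednrb, and for both genes the Angpt1ΔNC library lay outside them. Thbd (2.58, 3.2 and 4.51, 0.83 ± 0.15, adjusted p = 0.000961) and Ednra (1.66, 1.65 and 2.72, 0.91 ± 0.14, adjusted p = 0.000249) rose, and Edn3 fell (1.98, 1.75 and 1.07, -0.60 ± 0.17, adjusted p = 0.0189, or 0.156 by DESeq2). Of 9 members tested 5 were called, against 16.4% of all genes.

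The makeup of the mural class also changed. Smooth muscle label 19 held 387, 499 and 54 cells, label 20 held 461, 512 and 222, and label 21 held 188, 174 and 69. With the labels weighted equally Klf2 (-1.45), Ednrb (1.61) and Edn3 (-1.23) kept their directions, Thbd was at 0.49, and Ednra was at 0.16, and no single mural label called Ednra. In male-typed cells Klf2 was at -3.76, Ednrb at 3.11, Thbd at 0.95, Ednra at 1.01 and Edn3 at -1.18.

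Klf2 fell in each mural label when fitted alone, where edgeR called 0.966% of genes in label 19, 7.67% in label 20 and 8.21% in label 21. In label 20 it had 112, 76 and 6 UMIs (-2.74, adjusted p = 0.00206), in label 21 it went from 7.15 and 7.52 to 0.914 (-2.92), and in label 19 from 9.42 and 9.26 to 5.19 (-0.81, adjusted p = 0.025). Ednrb rose in label 20, from 1.54 and 1.13 to 4.44 (1.78), and in label 21, from 0.596 and 0.253 to 1.34 (1.74). Melanocytes were the cells richest in Ednrb, and their markers summed to 1.20, 1.11 and 1.01 in label 20 and to 0.754, 0.873 and 0.628 in label 21. Their part in the Ednrb result was not tested. The share of label 20 cells with an Ednrb UMI was 17.4%, 15.4% and 45.5%, or 12.9%, 10.2% and 35.8% at 2000 UMIs, against 1.99%, 3.03% and 3.00% in label 18.

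Label 20 carried 4 calls in all, with Thbd (0.78) and Edn3 (-1.24) beside Klf2 and Ednrb. The share of its cells with an Edn3 UMI went from 73.3% and 70.3% to 41.0%, and at 2000 UMIs from 53.3% and 51.5% to 25.2%. In label 21 Thbd (1.83) and Ece1 (1.20) rose and Klf4 fell (-0.62). The dissociation-response genes summed to 165, 151 and 98.4 in the mural class, with 6 of 15 lower by edgeR, against 16.4% of all genes called, among them Fos (-2.12), and to 121, 106 and 87.3 in label 20. The same genes summed to 203, 177 and 118 in label 19 and to 164, 176 and 108 in label 21. Their part in the Klf2 fall, and in the Klf4 fall of label 21, was not tested.

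**Figure D4:**
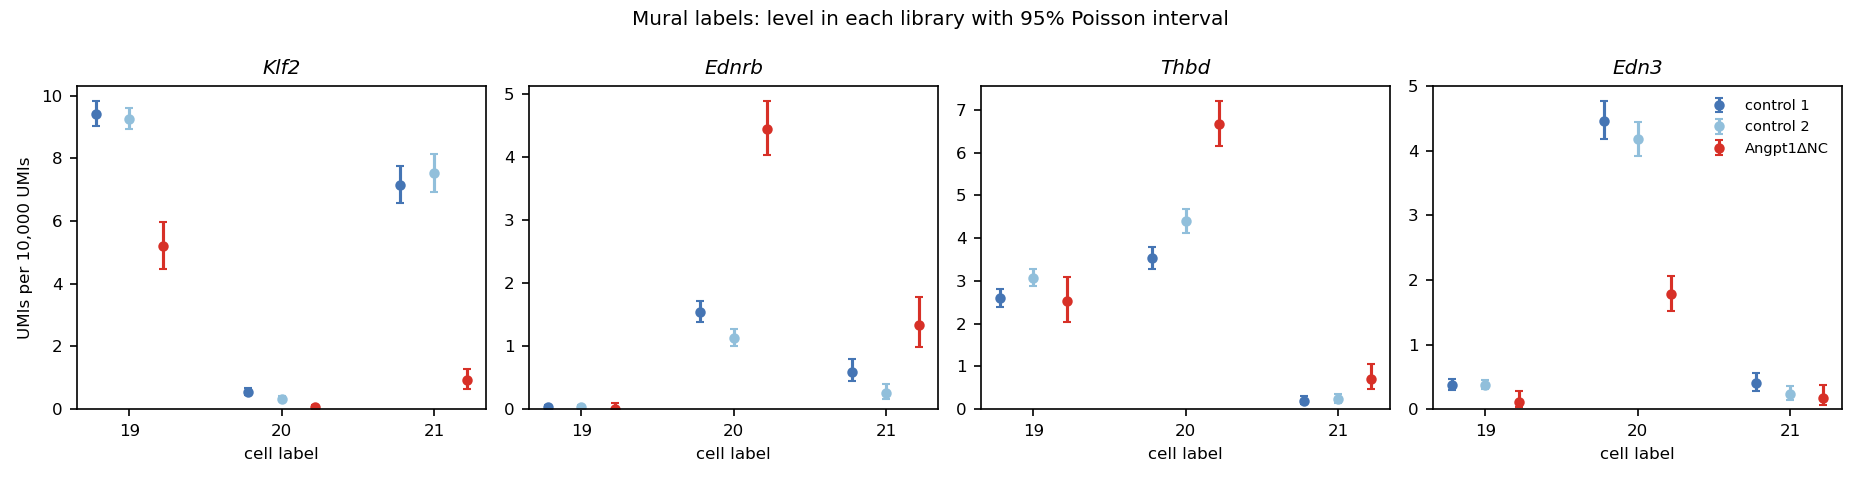
Levels of Klf2, Ednrb, Thbd and Edn3 (UMIs per 10,000, points, with 95% Poisson intervals for counting error) in mural labels 19, 20 and 21, 1 colour per library. Klf2 is lower in Angpt1ΔNC than in both controls in all 3 labels, and Ednrb is higher in labels 20 and 21.

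In the remaining classes few members passed the threshold, but members that did not pass could still differ in level. In melanocytes Thbd was 3.01-fold, Nos3 2.46-fold and Klf2 1.63-fold lower in Angpt1ΔNC, and Ednra was 1.59-fold higher. In surface epithelium Ednra was 3.70-fold and Edn3 1.82-fold higher, and Ednrb was 1.43-fold and Nos3 1.40-fold lower. Several of these genes had few UMIs there. In melanocytes Klf4 fell from 3.02 and 2.68 to 1.27 (-1.11 ± 0.14, adjusted p = 4.84e-08), 1 of 8 members tested, against 16.5% of all genes. Ednrb, their main endothelin receptor, stood at 26.3, 23.8 and 25.9 and changed by 0.10. Of the 15 dissociation-response genes 10 were lower and 1 higher in melanocytes, beside the same 16.5%, and their part in the Klf4 fall was not tested. In surface epithelium 0 of 10 members were called by edgeR (1 at an unadjusted p under 0.05, 0 of 7 by DESeq2), against 2.34% of all genes, while the endothelin gene Edn2, not one of the 10, fell there (0.438, 0.432 and 0.0982, log2 change -2.07).

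**Figure D5:**
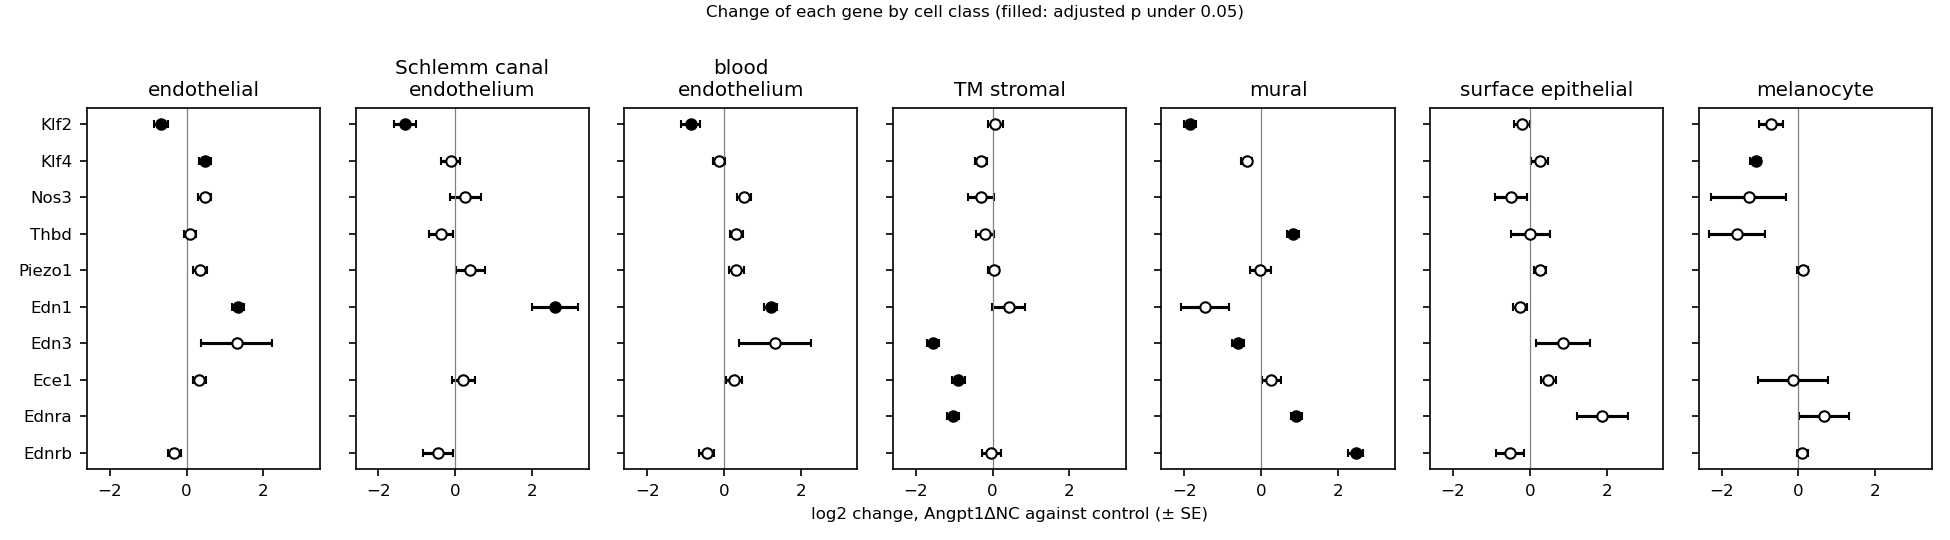
Log2 change of each member (points, bars are the SE of the edgeR fit), Angpt1ΔNC minus control, in 7 classes, with filled points at an adjusted p under 0.05 and no point where a member was not tested. Edn1 is higher in the 3 endothelial classes, Edn3, Ece1 and Ednra are lower in TM stroma, and Klf2 is lower and Ednrb higher in mural cells.

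Whether an effect differed between classes was tested by an interaction term in the same kind of edgeR fit. For TM stroma against endothelium 4 of the members were called (Klf2, Klf4, Edn3 and Ece1), against 4.51% of all genes. For mural cells against endothelium 5 were called (Klf2, Klf4, Thbd, Edn1 and Ednrb), against 8.22% of all genes. Both Klf4 calls were lost without the LEC label.

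Across the 23 labels that could be fitted alone, chosen after the class results were seen, between 0% and 15.1% of genes were called per label, with a median of 3.91%. The shares not given above were 7.03% in TM3, 2.48% in TM5, 0% in TM6, 11.6% in TM10, 2.16% in TM11, 0.916% in label 10, 3.91% in label 13, 0.288% in label 17, 3.22% in label 18, 4.03% in label 22, 0.34% in label 23, 4.48% in label 24 and 1.97% in label 25. Klf2 was lower in 10 of 23 and higher in 1, label 13 (1.30). Edn3 was lower in 5 of 16, including label 13, where the 51, 2 and 0 UMIs rest on control 1. Edn1 was higher in 2 of 9, Klf4 lower in 5 of 22, and Thbd higher in 4 and lower in 4 of 21. Ednrb was higher in 4 and lower in 2 of 17.

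Immune labels contributed to these counts. Klf2 fell in T-cell label 22 (-1.58) and macrophage label 24 (-0.77). Ednrb rose in label 24, from 0.340 and 0.312 to 0.637 (1.01), with melanocyte markers at 0.995, 1.05 and 0.948. In label 22 Ednrb rose from 1 and 3 to 25 UMIs (3.49), but melanocyte markers were higher there too, going from 1.60 and 1.79 to 13.3, with Dct, a melanin synthesis gene, at 0.303, 0.692 and 7.0. Their part in the label 22 result was not tested.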

How the data were processed

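Single-cell RNA-seq of limbus and iridocorneal angle was deposited by the authors as UMI counts per gene and cell for each of 3 libraries, with tables of the cells they kept and their cell labels. The submitters' processing notes name mm10, Cell Ranger 2.1.1 and Seurat 3.1.3. The authors removed doublets with scDblFinder and filtered cells on genes, UMIs and mitochondrial share. The matrices held 11255, 12625 and 8614 called cells, the stated limits left 10008, 11349 and 7254, and the kept cells were 9076, 10160 and 6772, with 76981606, 80346829 and 66484181 UMIs.

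UMI counts were summed per library and label or class (R 4.3.3, edgeR 4.0.16, TMM scaling, filterByExpr, quasi-likelihood test, Benjamini-Hochberg adjustment, threshold 0.05). Levels are UMIs per 10,000. Shares of cells carry exact binomial 95% intervals, which like all depth limits cover counting error only. The replicate is the pooled library, never the cell. The fits were tested on simulated data.

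Alternatives were DESeq2 1.42.0, its size factors in edgeR, no filter, male-typed cells, labels weighted equally and each control left out. Single labels and the fit without LEC were added after seeing the data. The members are all named. For each, the 3 genes most correlated over labels were named, and, from the 6 gene lists, those called in a class, at most 6 per list and class. Some genes that this rule would name are not reported here. The members and lists were chosen with earlier results of these data known.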

Additional observations from a re-analysis of the deposited data

Results flagged for a closer look

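The effect of Angpt1ΔNC on 9 member and class pairs differed from that in endothelium by an interaction term in edgeR's quasi-likelihood fit. The interaction fits called 4.51% of genes for TM stroma and 8.22% for mural cells, and both share the endothelial sums. For TM stroma minus endothelium the log2 difference of the effects was 0.72 for Klf2 (adjusted p = 0.0135), -0.79 for Klf4 (adjusted p = 0.00789), -2.89 for Edn3 (adjusted p = 0.029) and -1.25 for Ece1 (adjusted p = 0.0019). The Edn3 difference holds an endothelial change of 1.30 that was not called (adjusted p = 0.422) and rests on 6, 5 and 8 UMIs, of which 7 of the 8 came from 1 cell of EC4. In TM stroma alone the Edn3 change was -1.55.

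For mural cells minus endothelium it was -1.23 for Klf2 (adjusted p = 1.59e-12), -0.89 for Klf4 (adjusted p = 3.22e-07), 0.72 for Thbd (adjusted p = 0.000274, or 0.0642 without a filter on low counts), -2.81 for Edn1 (adjusted p = 2.27e-08) and 2.76 for Ednrb (adjusted p = 2.96e-61). Edn1 was not called in mural cells by itself (adjusted p = 0.12). Smooth muscle label 19 held 77, 48 and 6 Edn1 UMIs, while labels 20 and 21 held at most 3 in any library. The level in label 19 was 0.327, 0.149 and 0.163, and its cells numbered 387, 499 and 54. The part of this makeup in the Edn1 and Ednrb differences was not tested. Each interaction fit rests on 1 Angpt1ΔNC library, so its adjusted p does not measure the spread between Angpt1ΔNC libraries. Both Klf4 differences were lost without the LEC label, at -0.10 (adjusted p = 0.779) for TM stroma and -0.23 (adjusted p = 0.432) for mural cells.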

How the results depend on the processing

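No paired analysis was possible because there was 1 Angpt1ΔNC library and no label linked it to a control library. All 16 class calls of members kept their direction without either control library. They are not 16 separate results, because the endothelial classes share cells. All 16 of 16 were called with DESeq2's size factors in edgeR and without a filter. The calls held for 11 of the 15 that DESeq2 gave an adjusted p, and for 12 of 15 in male-typed cells. Leaving out one control moved the log2 change of Klf2 in endothelium between -0.87 and -0.46 and that of Edn1 between 1.17 and 1.49. Counts of genes called over all genes depended more on the tool. DESeq2 called 238 genes in endothelium (1250 by edgeR), 45 in Schlemm's canal (194), 270 in blood endothelium (887), 617 in TM stroma (1251), 505 in mural cells (1898), 456 in surface epithelium (299) and 478 in melanocytes (1998). With DESeq2's size factors blood endothelium gave 1344. Without a filter TM stroma gave 2441, surface epithelium 1934 and the mural interaction 227 (942). Male-typed cells gave 94 in Schlemm's canal, 72 in surface epithelium and 746 in melanocytes. The log2 change of Klf4 in endothelium turned to -0.16 without LEC and to -0.28 with labels weighted equally. In male-typed cells directions turned for Klf4 (0.51 in Schlemm's canal, 0.10 in blood endothelium, 0.19 in TM stroma), Ece1 in Schlemm's canal (-0.97) and Klf2 in melanocytes (0.44), and for Piezo1 in mural cells with DESeq2's size factors (0.0036), none of them called. The causes were not tested. The highest label changed to 18 for Thbd and to TM7 for Edn3 without the Angpt1ΔNC library. The 15 Angpt1ΔNC cells of Schlemm's canal limit the depth there.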
